A study of Mus musculus with 3 samples.

Results

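The Zic genes encode transcription factors with zinc fingers related to those of the Gli proteins, and they mark the dorsal midline of the developing nervous system. In the forebrain they are expressed along the midline, in the choroid plexus and in the meninges, and human ZIC2 is a holoprosencephaly gene. The genes lie in head-to-head pairs in the mouse genome, and human deletions that remove both genes of one pair, ZIC1 and ZIC4, are linked to Dandy-Walker malformation. Here 4 members, Zic1, Zic2, Zic4 and Zic5, were chosen by name and matched by Ensembl ID in all libraries, out of 27040 genes with an ID in every library.

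The cells came from a dissected region around the dorsal midline of the telencephalon, which holds the cortical hem, the signalling centre between cortex and choroid plexus. Gmnc-/- was represented by 1 library from 4 pooled C57BL/6J embryos at E12.5. Wild type was represented by 2 libraries from 1 suspension that pooled 4 PGKCre;Rosa26YFP embryos at E11.5 with 4 Wnt3aCre;Rosa26tdTomato embryos at E12.5, so every wild-type cell came from an embryo with a Cre and a reporter allele. PGKCre acts broadly and Wnt3aCre in the hem lineage. Gmnc encodes a regulator of multiciliated cell differentiation. Each genotype was a single suspension, the wild-type libraries were technical repeats counted as 1 sample, and no test between genotypes was possible. Genotype, stage, reporter alleles and processing cannot be told apart. Intervals are at 95% and cover counting error only.

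The files held 259403297 unique molecular identifiers (UMIs) in the knockout-labelled library and 148073906 and 139978761 in the wild-type libraries, and 12865, 8526 and 7477 cells were used, in that order. Gmnc itself was at 45.8 CPM (a gene's UMIs relative to all UMIs of the same cells) over all cells of the library labelled Gmnc-/- and at 29.9 and 31.3 CPM in wild type. Counts near the 3′ end do not check the label if they lie outside the deleted part, and the labels do not state which part that is; the library is therefore called knockout-labelled. The wild-type libraries shared 1914 deposited barcodes, 1860 of them with more than 32-fold different UMI totals, and 28 were used in both. The knockout-labelled library shared 78 and 42 deposited barcodes with them. Haemoglobin and other erythroid RNA was more abundant in the neural cells of the knockout-labelled library, for example 1543 CPM over 7 erythroid markers in hem progenitor-like cells, against 260 and 219 CPM in wild type. Its part in the Zic values below was not tested.

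On GRCm38 (GENCODE vM21), Zic1 (ENSMUSG00000032368) occupies chr9:91358058-91365810 on the minus strand and Zic4 (ENSMUSG00000036972) chr9:91362413-91389348 on the plus strand. Their annotated spans overlap by 3398 bases. No source used here gives the strand setting of the counting, so values from the overlap are uncertain. Zic5 (ENSMUSG00000041703) occupies chr14:122456795-122465677 on the minus strand and Zic2 (ENSMUSG00000061524) chr14:122475435-122479852 on the plus strand, with 9758 bases between their start sites. RefSeq promoter windows of 300 bases on GRCm38.p6 were matched for 3 members. The Zic4 window lies inside the GENCODE span of the gene, because the RefSeq start differs. Zic1 and Zic4 share a locus yet differed in how steeply their RNA varied between wild-type cell classes, whereas Zic2 and Zic5 had similar ranges. The windows are shown as a description, and any link between them and these ranges was not tested. Capitals mark the GC box GGGCGG and the CCAAT box on either strand.
Zic1, chr9:91365719-91366018, minus strand: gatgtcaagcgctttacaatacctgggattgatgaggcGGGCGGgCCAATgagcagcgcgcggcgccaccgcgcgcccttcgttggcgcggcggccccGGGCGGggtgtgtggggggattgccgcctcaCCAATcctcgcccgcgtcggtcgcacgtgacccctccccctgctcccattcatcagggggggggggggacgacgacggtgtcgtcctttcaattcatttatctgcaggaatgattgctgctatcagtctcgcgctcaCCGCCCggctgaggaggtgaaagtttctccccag
Zic4, chr9:91368722-91369021, plus strand: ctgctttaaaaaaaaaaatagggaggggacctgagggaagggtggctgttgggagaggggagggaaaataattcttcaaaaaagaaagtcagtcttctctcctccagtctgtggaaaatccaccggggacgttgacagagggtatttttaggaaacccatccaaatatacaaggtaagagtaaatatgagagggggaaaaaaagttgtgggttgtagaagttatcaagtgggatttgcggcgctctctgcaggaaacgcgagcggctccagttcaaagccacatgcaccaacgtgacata
Zic5, chr14:122465609-122465908, minus strand: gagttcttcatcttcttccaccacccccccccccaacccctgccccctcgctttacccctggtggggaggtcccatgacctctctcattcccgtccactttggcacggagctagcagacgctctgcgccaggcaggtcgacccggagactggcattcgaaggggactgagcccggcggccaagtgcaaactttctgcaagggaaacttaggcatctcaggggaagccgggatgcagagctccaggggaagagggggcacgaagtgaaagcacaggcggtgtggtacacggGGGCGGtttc
The Zic1 window held 3 GC boxes, 2 CCAAT boxes and 31 CpG dinucleotides. The Zic4 window held neither box and 8 CpGs, and the Zic5 window 1 GC box and 15 CpGs. Of all 32851 windows, 35.7% held the GC box and 37.4% the CCAAT box, and the median number of CpGs was 7. The TATA box TATAAA (13.6% of all windows), the ZIC-type letters CAGCAGG (10.5%) and the GLI-type letters GACCACCCA (0.253%) were not in these windows on either strand, and nothing follows from that about any factor.

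Cells were clustered without the Zic genes, and clusters were named from marker genes. In wild type all 4 Zic genes were higher in choroid plexus-like and hem progenitor-like cells than in pallial progenitor-like cells. Zic1 was at 642 and 674 CPM in mesenchyme-like cells, 460 and 462 in choroid plexus-like cells and 368 and 359 in hem progenitor-like cells. It was lower in Cajal-Retzius neuron-like cells (246 and 254 CPM), in intermediate progenitor-like cells (129 and 132 CPM), in pallial progenitor-like cells (89.4 and 86.7) and other neurons (57.7 and 77.3). The order of the classes was the same in both libraries, although the intervals of pallial progenitor-like cells and other neurons overlapped in the second. Zic1 thus ranged over 11.1-fold (9.30 to 13.3) in library 1 and 8.73-fold (7.47 to 10.2) in library 2.

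Zic4, the neighbour of Zic1, had the widest range of the 4 members. The choroid plexus-like class had the most, 476 and 488 CPM, and the level was lowest in other neurons at 8.25 and 7.88 CPM, a range of 57.7-fold (38.1 to 92.1) and 61.9-fold (40.5 to 100) in the wild-type libraries. Mesenchyme-like cells had 342 and 290 CPM, hem progenitor-like cells 130 and 122, and Cajal-Retzius neuron-like cells 61.1 and 77.4. Intermediate progenitor-like cells had 36.2 and 31.3 CPM and pallial progenitor-like cells 10.2 and 8.47, which the intervals did not separate from other neurons.

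The pair on chromosome 14 varied less. Zic2 was highest in choroid plexus-like cells at 159 and 160 CPM and lowest in pallial progenitor-like cells at 34.7 and 36.4, a range of 4.59-fold (4.26 to 4.94) and 4.40-fold (4.08 to 4.73). In wild-type library 2 the Zic2 intervals of choroid plexus-like and Cajal-Retzius neuron-like cells overlapped. The Zic2 levels in hem progenitor-like (142 and 146), Cajal-Retzius neuron-like (142 and 150) and mesenchyme-like cells (132 and 147) could not be put in a fixed order by their intervals. In other neurons Zic2 was at 86.6 and 81.4 CPM, above its level in pallial progenitor-like cells. Zic5 was highest in the choroid plexus-like class at 262 and 259 CPM. Hem progenitor-like cells had 236 and 239 CPM and Cajal-Retzius neuron-like cells 191 and 193. In mesenchyme-like cells, where Zic1 was at its highest, Zic5 was at 113 and 108 CPM, and in other neurons at its lowest, 55.9 and 52.2 CPM. The Zic5 intervals of other neurons and pallial progenitor-like cells overlapped in wild-type library 1.

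**Figure D1:**
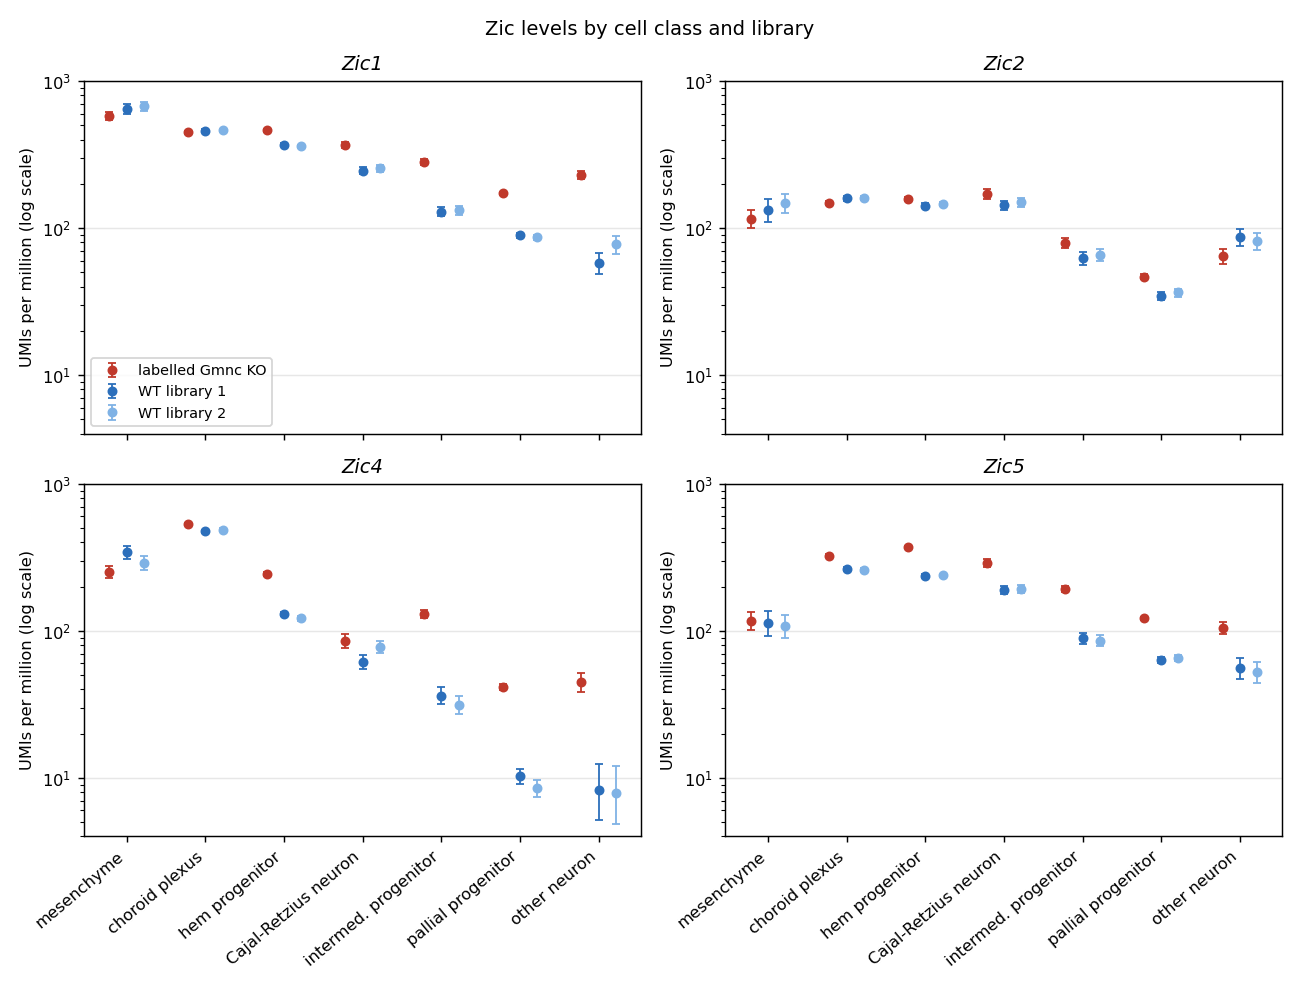
CPM (log scale) of each Zic gene by cell class, in the knockout-labelled library (left point of each class) and the 2 wild-type libraries; bars are exact Poisson 95% intervals. Zic4 spans the widest range, from 476 and 488 CPM in wild-type choroid plexus-like cells to 8.25 and 7.88 in other neurons, and the knockout-labelled points lie above the wild-type points in pallial and intermediate progenitor-like cells for all 4 genes.

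The wild-type pool mixed 2 stages, and the reporters offered a partial view of them. In hem progenitor-like cells with a tdTomato UMI and no YFP UMI, Zic4 was at 129 and 125 CPM, and in those with YFP only at 131 and 118. Zic5 in the same cells was at 240 and 237 CPM with tdTomato, against 239 and 239 with YFP. The reporter classes therefore differed little in the hem. With only the tdTomato cells as wild type, the knockout-labelled ratio of Zic4 in hem progenitor-like cells was 1.91 on the CPM + 1 scale, against 1.93 with all cells.

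The first comparison between genotypes was in the hem itself, whose progenitors feed the Cajal-Retzius neurons. Zic4 was at 244 CPM in knockout-labelled hem progenitor-like cells, against 130 and 122 CPM in wild type, a ratio of 1.94 (1.87 to 2.01). Zic5 was at 371 CPM in knockout-labelled cells and at 236 and 239 in wild type, a ratio of 1.56 (1.52 to 1.60). Zic1 was at 461 CPM, against 368 and 359 (ratio 1.27, 1.24 to 1.30). Zic2 was at 158 CPM, against 142 and 146 (ratio 1.09, 1.05 to 1.14). None of the 4 members passed the limit of 2-fold against each wild-type library, which 4.10% of 6829 genes passed upward and 1.07% downward. Without wild-type library 1, Zic4 was past the limit as 1 of the 4, and without the shared barcodes its ratio was 2.07 on the CPM + 1 scale, against 1.93 with them. The median log2 ratio was 0.49 over the members and -0.03 over all genes that passed the filter on low counts.

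The class had 2 clusters, in which the ratio of Zic4 differed. In cluster 2, Zic4 was at 246 CPM in knockout-labelled cells, against 136 and 133 in wild type, a ratio of 1.83 (1.75 to 1.91). In cluster 5 it was at 237 CPM, against 118 and 97.6, a ratio of 2.19 (2.05 to 2.35). Zic4 was past 2-fold upward there, as were 4.18% of 6668 genes. Zic5 had ratios of 1.54 and 1.55 in clusters 2 and 5, Zic1 1.21 and 1.41, and Zic2 1.06 and 1.11. Hem markers, Wnt and Rspo ligands among them, summed to 5988 CPM in knockout-labelled hem progenitor-like cells, against 5321 and 5266. Choroid plexus markers summed to 1008 CPM with 9 of 10 detected, against 581 with 9 of 10 and 568 with 10 of 10, and Kl was at 0 in the knockout-labelled library and in wild-type library 1. These shifts moved with the Zic values and their part was not tested.

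In choroid plexus-like cells, the epithelium that secretes cerebrospinal fluid, the family was nearly level. Zic1 was at 447 CPM in knockout-labelled cells, against 460 and 462, and Zic2 at 148, against 159 and 160. Zic4 was at 532 CPM, against 476 and 488 (ratio 1.10, 1.08 to 1.13), and Zic5 at 324, against 262 and 259 (ratio 1.24, 1.21 to 1.28). No member passed 2-fold in either direction, while 4.49% of 7056 genes passed upward and 3.05% downward. Cluster 15, led by genes of motile cilia, held 0 knockout-labelled cells, against 306 and 289 wild-type cells; without it the ratios on the CPM + 1 scale were 0.91 for Zic1, 0.88 for Zic2, 1.10 for Zic4 and 1.15 for Zic5. Choroid plexus markers in the class summed to 42169 CPM in knockout-labelled cells, against 17753 and 19484 in wild type.

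**Figure D2:**
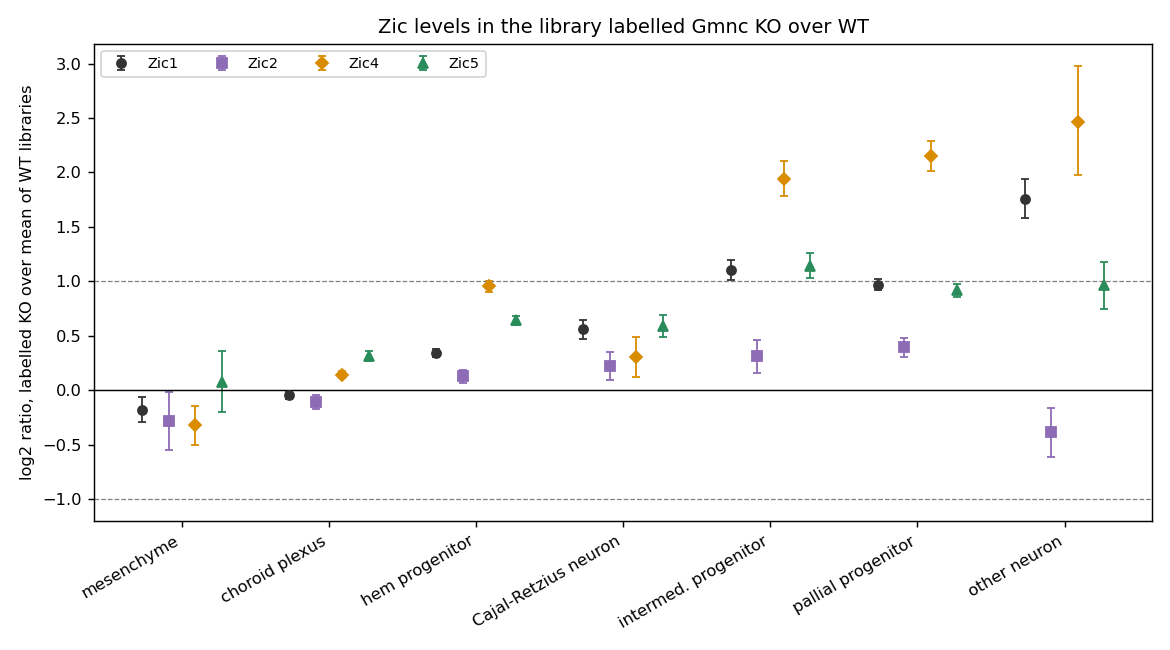
Log2 ratio of each Zic gene in the knockout-labelled library over the mean of the wild-type libraries, by cell class, with 95% intervals of counting error; dashed lines mark a 2-fold difference. Ratios lie between 0.80 and 1.24 in mesenchyme-like and choroid plexus-like cells, and Zic4 stands highest among the members in hem, intermediate and pallial progenitor-like cells.

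Pallial progenitor-like cells, which make the excitatory neurons of the cortex, had low Zic levels in wild type. Zic4 was at 41.5 CPM in their knockout-labelled counterparts, against 10.2 and 8.47 in wild type, a ratio of 4.44 (4.03 to 4.90). It was the 1 member of 4 past 2-fold, upward, against 3.79% of 6379 genes, and without the shared barcodes 2 of 4 were. Zic1 was at 172 CPM, against 89.4 and 86.7 (ratio 1.96, 1.89 to 2.03), and Zic5 at 122, against 63.1 and 65.7 (ratio 1.89, 1.81 to 1.97). Zic2 was at 46.8 CPM, against 34.7 and 36.4 (ratio 1.32, 1.24 to 1.40). The difference was present in both clusters, with Zic4 at 39.2 CPM in cluster 1, against 8.46 and 6.96, and at 43.3 CPM in cluster 3, against 11.8 and 9.69.

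How far the pallial values can be read depends on free RNA and on how the class is drawn. In erythroid-like cells, which should not express Zic genes, Zic4 was at 21.1 CPM in the knockout-labelled library, against 0 and 0.94 CPM in wild type. The ratio of Zic2 after subtracting each library's UMIs per erythroid-like cell was 0.96 in pallial and 0.98 in hem progenitor-like cells, so its direction depended on this step. The subtraction left Zic4 in pallial progenitor-like cells at 24.2 CPM, against 10.2 and 7.69. The erythroid measure is itself uneven: knockout-labelled cells with more than 50% haemoglobin held 1.0 Zic UMI per cell and the others 3.47. In microglia or macrophage-like cells Zic4 was at 9.0 CPM, against 0 and 6.12. With doublets kept, the class held 454 knockout-labelled cells in place of 2630, and the Zic4 ratio was 1.39 on the CPM + 1 scale; at resolution 2 it was 1.91. Pallial markers summed to 2230 CPM in knockout-labelled pallial progenitor-like cells, against 2911 and 2906, and choroid plexus markers to 92.5, against 39.0 and 32.4; their part was not tested.

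Intermediate progenitor-like cells, the dividing precursors on the way to neurons, showed the most members past the limit. Zic4 was at 130 CPM in knockout-labelled cells, against 36.2 and 31.3 (ratio 3.84, 3.43 to 4.31). Zic5 was at 193 CPM, against 88.7 and 85.8, and Zic1 at 281, against 129 and 132. These 3 of 4 members passed 2-fold upward, as did 3.97% of 6376 genes, while Zic2 was at 79.2 CPM, against 62.1 and 65.3. The class had 3 clusters, and the ratios differed between them. Cluster 12 held 366 knockout-labelled cells, against 285 and 267, with Zic4 at 41.2 CPM, against 11.1 and 8.81 (ratio 4.14, 3.00 to 5.78), and Zic1 at 160 CPM, against 74.9 and 78.7. The knockout-labelled Zic4 value there rested on 117 UMIs in the 366 cells, and knockout-labelled erythroid-like cells held 0.324 Zic4 UMIs per cell. Per cell these amounts are close, and the erythroid subtraction was not run for single clusters. Cluster 14 supplied 585 of 1095 knockout-labelled cells, against 142 of 580 and 116 of 531 wild-type cells, and Zic4 there was at 232 CPM, against 80.2 and 75.4 (ratio 2.98, 2.54 to 3.51). In cluster 17 Zic4 was at 45.5 CPM, against 43.4 and 38.3 (ratio 1.12, 0.84 to 1.48). When genes were scaled over all cells together, the class held 141 knockout-labelled cells, against 122 and 128, and the ratios were 0.88 for Zic4, 0.89 for Zic1 and 0.93 for Zic5 on the CPM + 1 scale. After the erythroid subtraction Zic4 was at 85.9 CPM, against 36.2 and 29.9, while the ratios of Zic1 (1.32) and Zic5 (1.41) no longer reached 2-fold. Hem markers in the class summed to 2033 CPM in knockout-labelled cells, against 1349 and 1267 in wild type, with 8 of 8 detected in each; their part was not tested.

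Cajal-Retzius neurons are early-born cells that organise cortical layering, and many arise from the hem. In Cajal-Retzius neuron-like cells Zic1 was at 368 CPM in the knockout-labelled library, against 246 and 254 (ratio 1.47, 1.38 to 1.57), and Zic5 at 289, against 191 and 193 (ratio 1.504, 1.40 to 1.62). Zic2 was at 170 CPM, against 142 and 150, and Zic4 at 85.8, against 61.1 and 77.4. None passed 2-fold, and 6.59% of 6860 genes did so upward and 9.71% downward. Different clusters held the class in the 2 genotypes: neuron sub-cluster 0 held 448 of 459 knockout-labelled cells, against 18 of 691 and 22 of 634 wild-type cells. Among sub-clusters 1, 3, 4, 5 and 7, which held most wild-type cells of the class, wild-type Zic4 varied from 155 and 172 CPM in sub-cluster 3 to 17.1 and 21.5 in sub-cluster 5, while Zic2 there was at 156 and 144 and at 132 and 141 CPM. After the erythroid subtraction the ratio of Zic4 turned to 0.71 and those of Zic1 and Zic5 were 1.11 and 1.21. At resolution 2 the ratios on the CPM + 1 scale were 3.67 for Zic4 and 2.45 for Zic5, both past 2-fold. The class then held other cells, 276 knockout-labelled, against 257 and 234, and the genotypes again lay mostly in different sub-clusters. The share of all genes past 2-fold at resolution 2 is not given here. In sub-cluster 0 alone, Zic4 was at 83.9 CPM in knockout-labelled cells, against 12.9 and 37.2 in the few wild-type cells. Zic1 and Zic4 together had only 50 and 31 UMIs in those wild-type cells. Zic4 made up 4.0% (0.49 to 13.7) and 22.6% (9.59 to 41.1) of them, so its wild-type values rest on very few counts.

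In the remaining neurons the genotypes fell into different sub-clusters: sub-clusters 6 and 8 held 235 and 182 knockout-labelled cells, against at most 3 wild-type cells per library, and sub-clusters 2 and 9 held no knockout-labelled cell. The values therefore stand side by side and describe mostly different cells. Zic1 was at 229 CPM in the knockout-labelled library, against 57.7 and 77.3, and Zic4 at 44.6, against 8.25 and 7.88; these 2 members passed 2-fold upward, as did 3.95% of 6359 genes. Zic5 was at 105 CPM, against 55.9 and 52.2, and Zic2 at 64.3, against 86.6 and 81.4. After the erythroid subtraction Zic4 was at 11.7 CPM, against 8.25 and 6.34, and no longer past 2-fold. Zic2 was then past 2-fold downward, at 38.5 CPM, against 85.1 and 78.3. Zic1 was still past 2-fold upward at 141 CPM, against 52.8 and 70.1, and Zic5 was at 48.2, against 51.9 and 46.5.

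Mesenchyme-like cells, which include the precursors of the meninges, were few, with 160 knockout-labelled cells, against 73 and 70. Zic1 was at 583 CPM in knockout-labelled cells, against 642 and 674 (ratio 0.88, 0.81 to 0.96). Zic4 was at 251 CPM, against 342 and 290 (ratio 0.80, 0.71 to 0.90), Zic2 at 115, against 132 and 147, and Zic5 at 116, against 113 and 108. After the erythroid subtraction Zic5 was at 64.4 CPM, against 109 and 104, so that its ratio turned to 0.60, and the ratios of Zic1, Zic2 and Zic4 were 0.77, 0.66 and 0.70. The median log2 ratio over the members was -0.23, against -0.12 over all genes, while it was 0.93 in pallial and 1.12 in intermediate progenitor-like cells. No member passed 2-fold, against 3.16% of 5988 genes upward and 2.52% downward. Mesenchyme markers summed to 10008 CPM in knockout-labelled cells, against 11134 and 10726, with 10 of 10 detected in each library.

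Clusters with the rostral midline and diencephalic names were found almost wholly in the knockout-labelled library, and their Zic1 and Zic4 levels were high. In 233 rostral midline progenitor-like cells Zic1 was at 671 CPM, Zic2 at 133, Zic4 at 803 and Zic5 at 299. In 110 diencephalic progenitor-like cells the values were 573 CPM for Zic1, 152 for Zic2, 677 for Zic4 and 398 for Zic5. Wild type held 1 cell of the first kind and 0 of the second, so no comparison was made. A further cluster of 23 knockout-labelled cells and no wild-type cell, named erythroid-like, had Zic1 at 123 CPM and Zic4 at 28.3. These cells belong to the erythroid-like class used as free-RNA background and in the erythroid subtraction. In knockout-labelled cells Zic1 was at 56.3 CPM over that class, against 48.6 in its other cluster, cluster 16. Zic4 was at 21.1 CPM over the class, against 20.3 in cluster 16. The part of the 23 cells in the subtracted values was not tested.

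Counts per class do not show how many cells held a gene, so shares of cells were compared at equal depth, after thinning to 4000 UMIs. These shares also rise with RNA per cell. They therefore cannot separate more cells with the gene from more RNA per cell. In hem progenitor-like cells the share with a Zic4 UMI was 52.9% in the knockout-labelled library, against 32.7% and 30.4%, and before thinning 74.4%, against 61.3% and 62.3%. In pallial progenitor-like cells it was 13.7%, against 3.12% and 2.83%, and in erythroid-like cells 6.78%, against 0% and 0%. The median depth before thinning was 12596 UMIs in knockout-labelled pallial progenitor-like cells, against 16567 and 18917, and 16091 in erythroid-like cells, against 15637 and 17491. It was 8894 and 6468 UMIs in knockout-labelled hem and intermediate progenitor-like cells. A fixed amount of free RNA per cell would weigh more in shallower cells after thinning, so the erythroid-like share can understate their background. Of thinned hem progenitor-like cells, 14.4% held UMIs of all 4 members in the knockout-labelled library, against 7.17% and 6.88%. In pallial progenitor-like cells 31.0% held none, against 52.7% and 55.3% in wild type, and in choroid plexus-like cells 1.27%, against 0.835% and 1.72%.

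**Figure D3:**
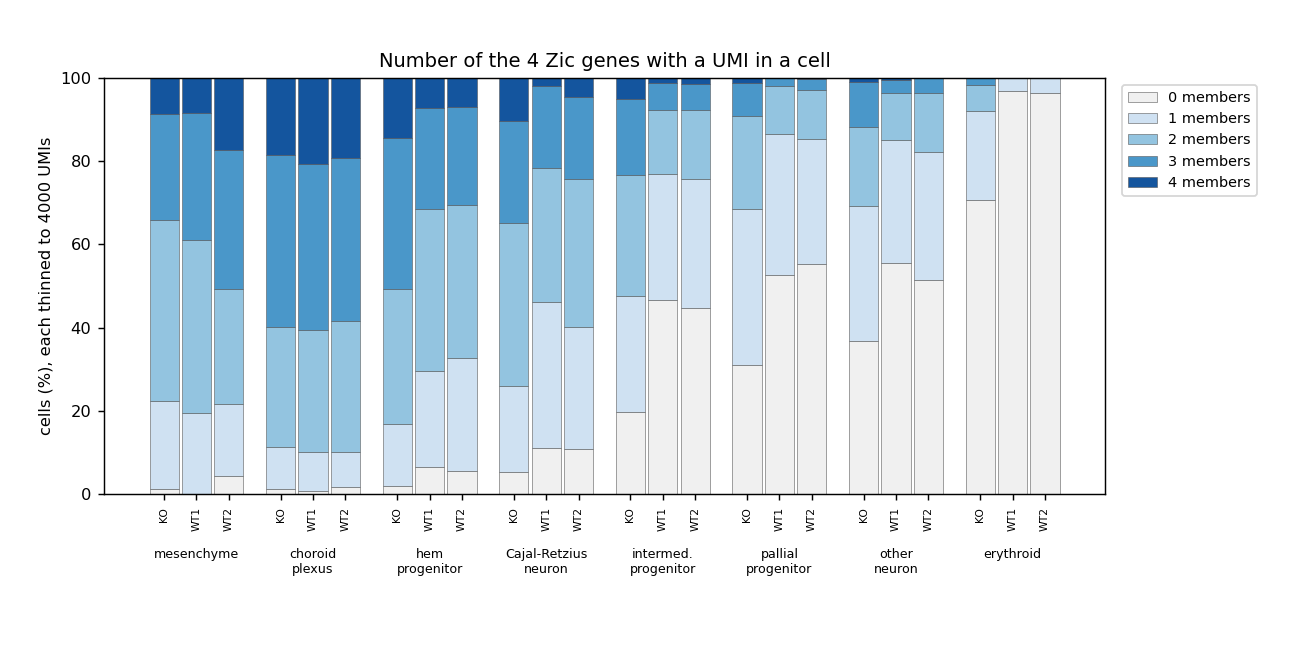
Share of cells (%), each thinned to 4000 UMIs, with a UMI of 0, 1, 2, 3 or 4 of the Zic genes, by cell class, with the knockout-labelled library left of the wild-type libraries. Erythroid-like cells show free RNA at their own depth and do not give the background of shallower classes. Hem, intermediate and pallial progenitor-like cells with no Zic UMI were fewer in the knockout-labelled library, and so were erythroid-like cells with none, at 70.8%, against 96.8% and 96.5%.

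Within each head-to-head pair the balance shifted with cell class. Zic4 made up 54.4% (53.7 to 55.0) of the UMIs of Zic1 and Zic4 in knockout-labelled choroid plexus-like cells, against 50.9% (50.1 to 51.6) and 51.4% (50.6 to 52.1). Its share in the hem progenitor-like class was 34.6%, against 26.1% and 25.3%, and in pallial progenitor-like cells 19.4%, against 10.3% and 8.90%. In Cajal-Retzius neuron-like cells it was 18.9% (17.1 to 20.8), against 19.9% (18.02 to 21.9) and 23.3% (21.4 to 25.3), and in mesenchyme-like cells 30.1%, against 34.8% and 30.1%. The share of Zic5 in the Zic2 and Zic5 pair varied little between the neural progenitor and choroid plexus classes of wild type, from 56.8% to 64.5%. It was higher in the knockout-labelled library in each of the 7 classes, for example 70.2% in hem progenitor-like cells, against 62.4% and 62.0%. Among mesenchyme-like cells it was 50.2% (45.2 to 55.3), against 46.0% (39.6 to 52.6) and 42.3% (36.5 to 48.3), where the intervals overlapped. These are UMI shares, and the 3′ ends of different genes may be captured unequally.

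**Figure D4:**
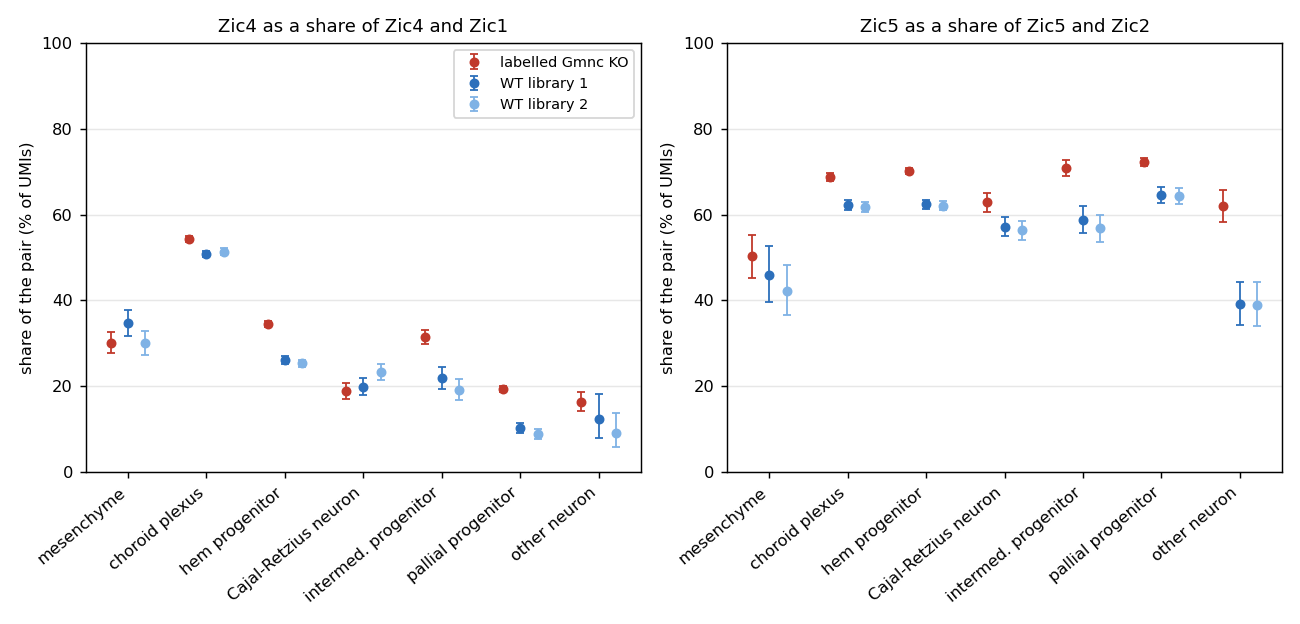
Share of the pair's UMIs (%) from Zic4 in the Zic1 and Zic4 pair and from Zic5 in the Zic2 and Zic5 pair, by class, with exact 95% intervals, in the knockout-labelled library and the wild-type libraries. The Zic4 share is lower in pallial progenitor-like than in choroid plexus-like cells in every library, whereas the wild-type Zic5 share lies between 56.3% and 64.5% outside mesenchyme-like cells and other neurons.

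The 18 clusters in which both genotypes had 50 cells or more were compared next: the genes most like each member in wild type were found by correlation of log2(CPM + 1) among 8855 genes. The points share libraries and depth, and the values are descriptive. They include erythroid-like cluster 16, with wild-type Zic1 at 3.21 and 4.39 CPM. Microglia or macrophage-like cluster 22, with 6.43 and 22.5 CPM, is also included. A gene that is low in these clusters can therefore have a high r with the members, and r without these clusters was not tested. Zic4 was most like Bmp5 (r = 0.97 in wild type, 0.83 in the knockout-labelled library) and Bmp4 (0.96 and 0.91), which encode ligands of the bone morphogenetic protein family secreted by the dorsal midline, followed by Arid5b, Mcu and Heph. Zic5 was most like Tmem47, its neighbour Zic2, Zfp521, Cep112 and Axin2, a feedback inhibitor and target of Wnt signalling (r = 0.96 and 0.91). Zic2 was most like Erc1, Zic5, Sobp, Sgce and Nbeal1, and Zic1 like Smarca1, Tmem80, Parva, Zic2 and Zic5. Zic1 and Zic4 themselves had r = 0.94 and 0.90.

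Zic proteins are known to interact with Gli factors, the transcriptional effectors of Hedgehog signalling, so related lists were examined. In hem progenitor-like cells 4 of 11 Hedgehog pathway genes passed the filter and 2 were past 2-fold upward, beside 4.10% of all 6829 genes. Ptch1, the Hedgehog receptor and itself a target, was at 43.2 CPM in knockout-labelled cells, against 16.2 and 15.2 (ratio 2.75, 2.50 to 3.03). Cdon, a co-receptor, was at 106 CPM, against 39.0 and 40.5. The median log2 ratio of the 4 was 0.65, against -0.03 over all genes. The same 2 genes passed in choroid plexus-like cells, where Ptch1 was at 47.1 CPM, against 21.7 and 19.8. In pallial progenitor-like cells 1 of 4, Cdon, did so, at 110 CPM, against 50.8 and 55.0, and in mesenchyme-like cells 0 of 4. Of the Hedgehog targets, Ptch1 was the 1 of 4 past 2-fold in hem progenitor-like cells, and the list's median log2 ratio was -0.24.

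Of 6 Gli and Glis relatives, 2 passed the filter in hem progenitor-like cells and neither passed 2-fold. In Cajal-Retzius neuron-like cells both that passed the filter were past 2-fold downward, beside 9.71% of all 6860 genes: Gli3 was at 16.5 CPM in knockout-labelled cells, against 48.8 and 47.4, and Gli2 at 7.51, against 20.1 and 20.01. Among holoprosencephaly genes 2 of 8 passed upward in hem progenitor-like cells, again Ptch1 and Cdon. The dorsal midline transcription factor list had 0 of 9 past 2-fold there, with Otx2 at 350 CPM, against 175 and 169. In Cajal-Retzius neuron-like cells 3 of 7 were past 2-fold downward, with Id1, an inhibitor of basic helix-loop-helix factors induced by bone morphogenetic proteins, at 20.8 CPM, against 209 and 193. Meningeal transcription factors had 1 of 10 past 2-fold in mesenchyme-like cells, Six2, downward at 11.6 CPM, against 26.6 and 39.3. In the progenitors Zfhx4 of that list was past 2-fold upward, at 90.3 CPM in hem progenitor-like cells, against 42.5 and 44.2, and at 42.8 in pallial progenitor-like cells, against 12.7 and 13.0.

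The ratios were recomputed under 20 alternatives of processing, of which those on the filter and the fold cannot change a ratio. In hem progenitor-like cells the ratio of Zic4 lay between 1.76 and 2.28 on the CPM + 1 scale and that of Zic5 between 1.41 and 1.63. In pallial progenitor-like cells Zic4 lay between 1.39 and 5.01, with the low end from the classes drawn with doublets kept, and in intermediate progenitor-like cells between 0.88 and 4.29.

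**Figure D5:**
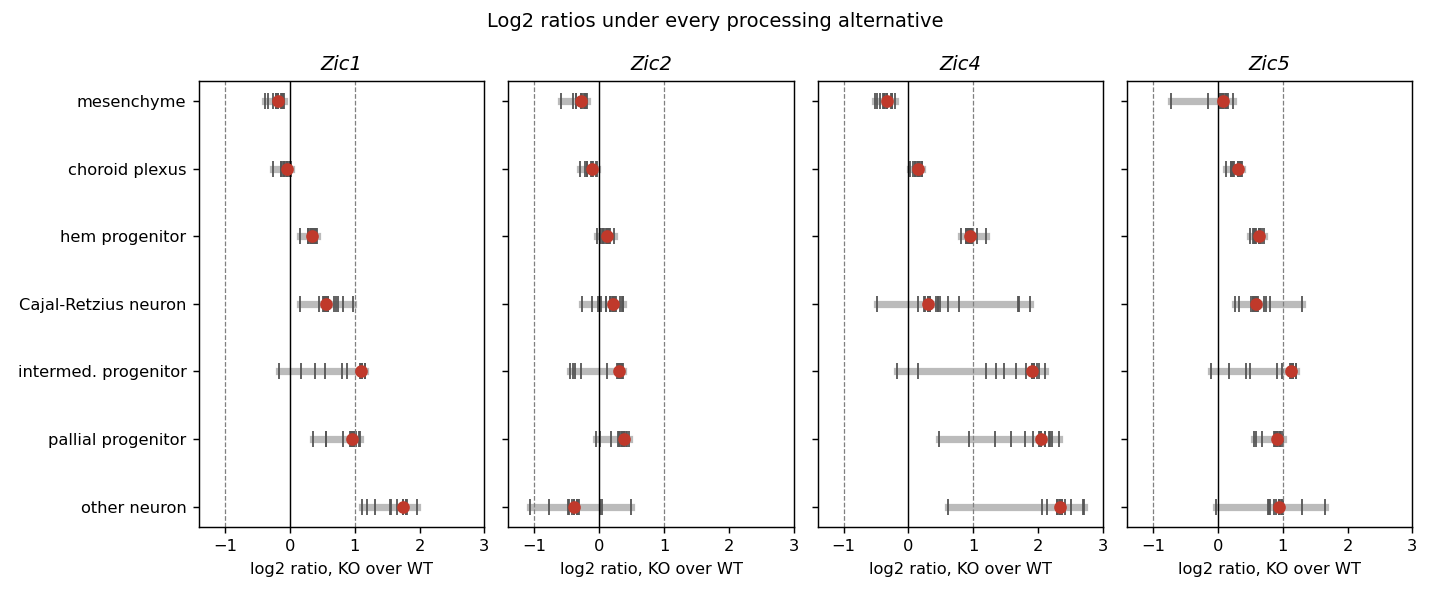
Log2 ratios of the knockout-labelled library over wild type on the CPM + 1 scale; the red point is the reported value, each tick is 1 of up to 20 alternatives, and the grey bar is their range. Hem progenitor-like and choroid plexus-like ratios of Zic4 and Zic5 vary little, whereas the Zic4 ratio of intermediate progenitor-like cells runs from 0.88-fold to 4.29-fold.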

How the data were processed

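The authors deposited UMI counts per gene and barcode, aligned to mm10; Cell Ranger 3.1.0 is the version in the submitters' processing notes. The knockout-labelled file was written by version 6.0.0 and the wild-type files by 3.1.0, per the file headers. Library chemistry was 10x Genomics 3′ v3, per the labels' protocols. No source used here names the annotation release. Features with an Ensembl ID in all libraries were kept (27040). Cells needed 1000 genes, 2000 UMIs and at most 10% mitochondrial UMIs; 2488 knockout-labelled and 941 and 678 wild-type cells were removed as doublets, those with most simulated doublets among their neighbours, up to a preset 0.8% per 1000 barcodes. The 2000 most variable genes, without Zic genes, listed genes and technical genes, were scaled within genotype, and Leiden clustering ran at resolution 1 on 40 components and 20 neighbours. Clusters were named from at least 3 markers at 2-fold; 2 pallial clusters were named in a second pass, and the margin of 1 (log2) for Cajal-Retzius sub-clusters was chosen after they had been seen.

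For each class, a gene's UMIs in a library were added up and set against all UMIs of that class (CPM). CPM has exact Poisson intervals, shares have Clopper-Pearson intervals and ratios an interval conditional on summed counts, at 95%. A gene passed the filter with at least 50 UMIs and 20 CPM on its higher side and was past 2-fold when it was so against each wild-type library. log2 ratios use a pseudocount of 1 CPM. The call was tested on data simulated with counting error only, which does not cover differences between suspensions or free RNA. Named genes are the members, the 5 most correlated genes of each, and list genes past 2-fold, up to 4 per list; Otx2 in hem progenitor-like cells was added after its value was seen. Members and lists were chosen with earlier results of these data known. 1 further gene of the family is not reported here. Analyses used Python 3.11.15 with numpy 2.4.6, scipy 1.17.1, scikit-learn 1.9.0 and leidenalg 0.10.2.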

Additional observations from a re-analysis of the deposited data

Results flagged for a closer look

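Zic2 differed between genotypes in opposite directions by cell class. Its ratio of the knockout-labelled library over wild type was 1.092 in hem progenitor-like cells, 1.316 in pallial progenitor-like cells and 1.242 in intermediate progenitor-like cells, and 0.9261 in choroid plexus-like cells, with each wild-type library on the same side. In choroid plexus-like cells the log2 ratio of Zic2, -0.11, was close to the median over all genes, -0.09. The difference between classes was not tested. After the erythroid subtraction the ratios were 0.98, 0.96, 0.73 and 0.81 in these classes, so the opposite directions were not kept. A further signal came from a gene outside the shared features: 2610035F20Rik, whose span ends 235 bases from that of Zic2 on the opposite strand, was at 69.87 CPM in knockout-labelled hem progenitor-like cells. It is listed in the knockout-labelled feature set alone, so it has no wild-type value here.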

How the results depend on the processing

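Of 516 recomputed log2 ratios under 20 alternatives, 364 stayed within the counting interval of the reported value, 149 moved and 3 values past 2-fold reversed. The alternatives on the filter and the fold change only which genes are called, so their ratios stayed by construction. Taking shared clusters only likewise left hem, pallial and intermediate progenitor-like and mesenchyme-like cells unchanged. These ratios are counted among the 364. The reversals were in intermediate progenitor-like cells with genes scaled over all cells together, at -0.17 for Zic1, -0.18 for Zic4 and -0.10 for Zic5 (log2); the class then held other cells. Members past 2-fold in pallial progenitor-like cells (1 reported) were 2 by the mean of CPM over cells, after thinning and without shared barcodes, 3 at a fold of 1.5, and 0 with 200 UMIs and 50 CPM required, with doublets kept and at resolution 2. In intermediate progenitor-like cells (3 reported) they were 1 with doublets kept, with cells of at least 5000 UMIs, at resolution 2 and after the erythroid subtraction, and 0 at resolution 0.5 and with joint scaling. In hem progenitor-like cells (0 reported) they were 2 at a fold of 1.5 and 1 with joint scaling, and ranged from 0 to 1 when a wild-type library was left out. In Cajal-Retzius neuron-like cells (0 reported) they were 2 at resolution 2, and 1 with joint scaling or shared clusters only. In other neurons (2 reported) there was 1 with the stricter filter; after the erythroid subtraction there were 2, but Zic2, downward, in place of Zic4. All genes past 2-fold numbered 353 in hem progenitor-like, 532 in choroid plexus-like, 306 in pallial progenitor-like, 400 in intermediate progenitor-like, 1118 in Cajal-Retzius neuron-like cells, 397 in other neurons and 340 in mesenchyme-like cells. In that order they were 1909, 2311, 1825, 1727, 3142, 1334 and 1200 with no filter, 188, 263, 162, 215, 571, 218 and 93 with the stricter filter, and 1229, 1728, 1167, 1284, 2383, 1247 and 1260 at a fold of 1.5. Thinning gave 137 in mesenchyme-like cells, and shared clusters only gave 395 in Cajal-Retzius neuron-like cells. Apart from the filters, folds and samples themselves, the cause was not tested. Joint scaling left 0 knockout-labelled pallial progenitor-like cells, tdTomato cells were too few for intermediate progenitors, other neurons and mesenchyme, and no sub-cluster of other neurons had 20 cells of each genotype, so these gave no value. The alternatives on shared barcodes, shared clusters, the multiciliated cluster and erythroid UMIs were chosen after seeing the data. No paired analysis was possible because the knockout was represented by 1 library. With 1 suspension per genotype, depth limits only the counting error.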

Other observations

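Zic levels were also read in clusters that no marker list named, which held 31.1% of knockout-labelled cells and 27.7% and 26.8% of wild-type cells. Over all unnamed cells Zic4 was at 80.6 CPM in the knockout-labelled library, against 58.2 and 55.2 (ratio 1.42, 1.35 to 1.49). In cluster 0, Zic4 was at 46.6 CPM in knockout-labelled cells, against 9.25 and 7.54 in wild type, and in cluster 13 at 519 CPM, against 256 and 247. The knockout-labelled value in cluster 0 rested on 632 UMIs in 1269 cells, beside 0.324 Zic4 UMIs per knockout-labelled erythroid-like cell. The part of free RNA in this cluster was not tested. The gene 2610035F20Rik, beside Zic2, was at 168 CPM in knockout-labelled diencephalic progenitor-like cells, 117 in rostral midline progenitor-like cells, 99.0 in choroid plexus-like cells and 8.96 in pallial progenitor-like cells, with 9.34 CPM in erythroid-like cells as background.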
